A study of Arabidopsis thaliana with 8 samples.

Results

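Arabidopsis seedlings that overexpress the wheat transcription factor TabZIP6 were compared with wild type, and 62 probe sets were described whose level in the unchilled transgenic line lay on the side of the cold response of wild type. A probe set is the group of short probes by which an Affymetrix array reads a transcript. The members were chosen on log2 signal, within each replicate number. Unchilled L20 minus unchilled Col-1, and chilled minus unchilled Col-1, both had to be at least 1 (a factor of 2) in both replicates, or both at most -1. Chilled minus unchilled L20 must not have reached that same bound in both. Of 22746 probe sets, 69 met these conditions, and 7 of them were left aside by name, among them the dehydrin gene LTI30 and the cold-regulated gene COR15A. The 62 comprised 28 higher and 34 lower in unchilled L20.

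The 4 groups, of 2 arrays each, were L20 after 6 h at 4 °C, L20 before cold at 22 °C, Col-1 after 6 h at 4 °C and Col-1 before cold at 22 °C. All were whole seedlings grown for 10 days. L20 is 1 line, the labels name neither the promoter that drives TabZIP6 nor the ecotype of L20, and Col-1 is the ecotype given for wild type. TabZIP6 is a wheat gene and was not analysed here, so its level in L20 was not checked. The replicate numbers come from the sample titles, which call the replicates biological. The titles do not say that equal numbers shared a growth batch or a day.

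Cold acclimation in Arabidopsis is driven in large part by CBF transcription factors, which bind the promoters of cold-regulated (COR) genes and raise protective proteins such as dehydrins and other late-embryogenesis-abundant (LEA) proteins. Factors of the basic leucine zipper (bZIP) family act in parallel, since many of them carry abscisic acid signals to genes that answer drought, salt and cold alike. Cold also lowers many transcripts, among them genes of growth.

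All 8 arrays entered the choice of the members, and unchilled Col-1 was subtracted in both qualifying differences. The differences below are therefore descriptions of the chosen probe sets and not tests. A high or low reading of unchilled Col-1 moves both differences the same way. The array medians lay between 4.95 and 5.06, and the upper quartile was 6.28 in replicate 1 of unchilled Col-1, against 6.46 to 6.65 on the other 7 arrays. Of the markers fixed for the tissue, 1 of 8 shoot genes and 1 of 8 root genes had a named probe set: RCA, the activase of the photosynthetic enzyme Rubisco, read 12.62 to 13.52, and EXPA7, a root-hair expansin, read 4.41 to 5.41. Of the 4 seed and 3 flower markers 0 could be read.

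Only 26 of the 62 probe sets carried the name of 1 gene, for 25 genes, 10 in the higher and 15 in the lower set. Another 35 were unnamed in the annotation used here, and 1 was shared by several genes. Unnamed probe sets made up 56.5% of the members, against 38.4% of all 22746.

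Some of the named genes of the higher set belong to dehydration and cold protection. Their share over all probe sets was not counted. AT1G16850, which encodes a membrane protein annotated to salt stress, read 9.20 and 9.44 in unchilled L20 and 9.13 and 9.88 in chilled Col-1, against 4.68 and 4.83 in unchilled Col-1. All arrays of unchilled L20 and chilled Col-1 were far above both of unchilled Col-1, and in replicate 1 unchilled L20 stood level with chilled Col-1. RD2, a desiccation-responsive gene of the universal stress protein family, read 9.72 and 9.36 in unchilled L20 and 9.56 and 9.96 in chilled Col-1, against 8.07 and 8.22 in unchilled Col-1. The LEA gene AT2G23120 read 9.85 and 9.51 in unchilled L20 and 10.46 and 10.49 in chilled Col-1, against 7.27 and 8.42 in unchilled Col-1. For this LEA gene unchilled L20 was intermediate, below both chilled Col-1 arrays and above both unchilled ones.

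One member could not be assigned to a single gene. The probe set 246481_s_at is annotated to KIN1 and KIN2, neighbouring cold-induced genes with near-identical products, so neither gene's own level can be given. It read 11.57 and 11.36 in unchilled L20 and 10.70 and 10.96 in chilled Col-1, against 9.64 and 9.83 in unchilled Col-1. Here unchilled L20 exceeded chilled Col-1 in both replicates, by 0.87 and 0.40 on the log2 scale.

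Genes of membranes and mitochondria were also in the higher set. NDB2, an alternative NAD(P)H dehydrogenase of the mitochondrial inner membrane that bypasses complex I under stress, read 7.55 and 6.11 in unchilled L20 and 6.78 and 6.58 in chilled Col-1, against 4.62 and 4.58 in unchilled Col-1. AT1G11960, of the OSCA family of osmosensitive calcium channels, read 7.72 and 7.67 in unchilled L20 and 8.82 and 8.44 in chilled Col-1, against 5.76 and 6.49 in unchilled Col-1. The 2 genes differed in their position: NDB2 in unchilled L20 was above chilled Col-1 in replicate 1 and below it in replicate 2, while AT1G11960 was below it in both. AT1G21790, which encodes a membrane protein with a lipid-sensing TLC domain, read 7.17 and 6.47 in unchilled L20 and 6.83 and 8.07 in chilled Col-1, against 5.82 and 5.37 in unchilled Col-1.

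The remaining named genes of the higher set have less well known products. AT4G18280, related to glycine-rich cell wall proteins, read 8.68 and 8.32 in unchilled L20 and 10.32 and 9.03 in chilled Col-1, against 5.85 and 6.99 in unchilled Col-1. AT1G73390, which encodes a protein with a BRO1-like domain, read 9.13 and 7.55 in unchilled L20 and 8.35 and 8.60 in chilled Col-1, against 6.57 and 6.25 in unchilled Col-1. Unchilled L20 minus chilled Col-1 was -1.63 and -0.71 for AT4G18280, and 0.78 and -1.04 for AT1G73390. AT5G24570, an uncharacterised gene, read 7.81 and 7.18 in unchilled L20 and 8.27 and 8.76 in chilled Col-1, against 6.35 and 5.98 in unchilled Col-1. The WD-repeat gene AT1G78070 read 8.25 and 6.90 in unchilled L20 and 8.52 and 7.60 in chilled Col-1, against 5.47 and 5.89 in unchilled Col-1. Both genes were below chilled Col-1 in both replicates, and their unchilled groups did not overlap between the lines. The same held for 61 of the 62 members, since the rule asked for a difference of at least 1 in both replicates.

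**Figure D1:**
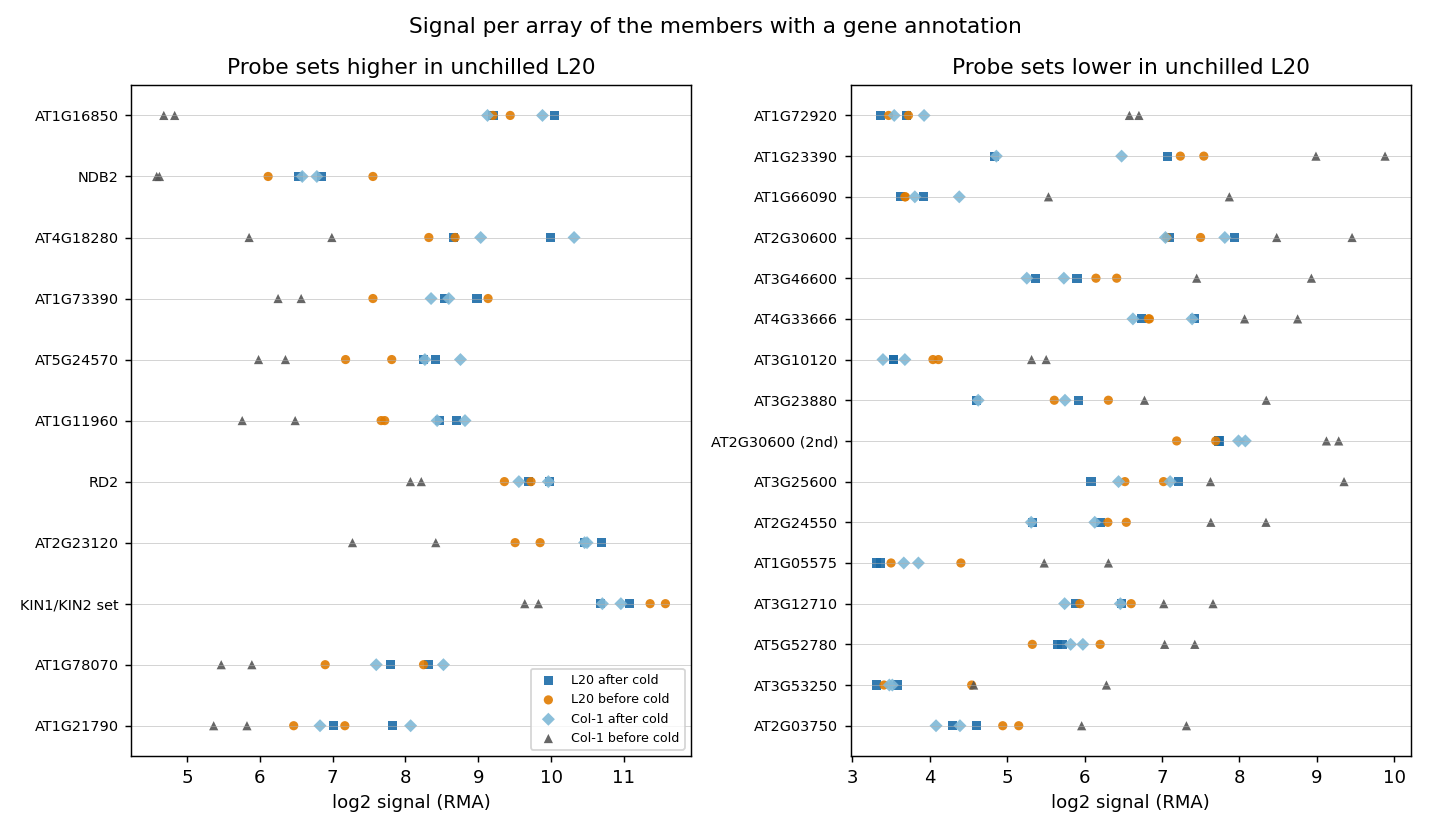
Log2 signal on each of the 8 arrays for the member probe sets with a gene annotation, higher (left) and lower (right) in unchilled L20; each row has 2 points per group, and "(2nd)" marks the other probe set of AT2G30600. Unchilled Col-1 stands apart from the other 3 groups in most rows, as the rule required of unchilled L20 and chilled Col-1; AT1G16850, for example, lies at 4.68 and 4.83 in unchilled Col-1 and between 9.13 and 10.05 elsewhere.

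Some of the named genes of the lower set belong to defence or protein turnover. The share of such genes over all probe sets was not counted. AT1G72920 and AT1G66090 both encode short proteins with the TIR and NBS domains of plant immune receptors. AT1G72920 read 3.73 and 3.47 in unchilled L20 and 3.54 and 3.93 in chilled Col-1, against 6.58 and 6.70 in unchilled Col-1. AT1G66090 read 3.69 and 3.68 in unchilled L20 and 3.81 and 4.38 in chilled Col-1, against 5.53 and 7.87 in unchilled Col-1. In unchilled L20 both genes were below the lower quartile of the arrays (4.04 to 4.13), and the background of single probes was not analysed here. The unchilled groups of the lines did not overlap for either gene, as for 33 of the 34 lower members, which follows largely from the rule.

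A pair of F-box genes, whose products select proteins for degradation, were members. AT1G23390, a Kelch-repeat F-box gene whose product targets chalcone synthase, the entry enzyme of flavonoid synthesis, read 7.24 and 7.54 in unchilled L20 and 4.86 and 6.48 in chilled Col-1, against 8.99 and 9.88 in unchilled Col-1. It was the member that stayed more than the bound short of chilled Col-1 in both replicates, by 2.38 and 1.06. AT3G23880 read 5.61 and 6.31 in unchilled L20 and 4.63 and 5.75 in chilled Col-1, against 6.77 and 8.35 in unchilled Col-1. AT2G30600, which encodes a protein with a BTB/POZ domain, was read by 2 member probe sets, which share their transcript and are not independent. The first, 267523_at, read 7.06 and 7.50 in unchilled L20 and 7.04 and 7.81 in chilled Col-1, against 8.48 and 9.46 in unchilled Col-1. The second, 267524_at, read 7.69 and 7.19 in unchilled L20 and 7.99 and 8.08 in chilled Col-1, against 9.12 and 9.28 in unchilled Col-1. In replicate 2 both put unchilled L20 below chilled Col-1, with differences of -0.31 and -0.89.

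Signalling and transcription were represented by 3 named genes. AT3G46600, of the GRAS family of transcriptional regulators, read 6.15 and 6.42 in unchilled L20 and 5.73 and 5.25 in chilled Col-1, against 7.45 and 8.93 in unchilled Col-1. AT3G25600, a calmodulin-like calcium sensor, read 6.52 and 7.02 in unchilled L20 and 6.44 and 7.11 in chilled Col-1, against 7.63 and 9.35 in unchilled Col-1. This calcium sensor differed from chilled Col-1 by only 0.08 and -0.09. AT3G53250, of the SAUR family of early auxin-response genes, read 3.41 and 4.54 in unchilled L20 and 3.52 and 3.48 in chilled Col-1, against 4.57 and 6.28 in unchilled Col-1. Replicate 2 of unchilled L20 almost reached replicate 1 of unchilled Col-1, and the groups did not overlap. AT3G53250 was below the lower quartile of the arrays (4.04 to 4.13) in chilled Col-1 and in replicate 1 of unchilled L20.

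Metabolic and chloroplast genes completed the named part of the lower set. AT2G03750, a sulfotransferase gene, read 4.94 and 5.15 in unchilled L20 and 4.08 and 4.39 in chilled Col-1, against 5.96 and 7.32 in unchilled Col-1. AT5G52780, related to the photosystem assembly factor PAM68, read 5.33 and 6.20 in unchilled L20 and 5.98 and 5.82 in chilled Col-1, against 7.03 and 7.42 in unchilled Col-1. The DNA glycosylase gene AT3G12710 read 5.94 and 6.60 in unchilled L20 and 5.74 and 6.46 in chilled Col-1, against 7.02 and 7.66 in unchilled Col-1. Of these 3 genes, AT3G12710 lay closest to its chilled Col-1 level, at 0.20 and 0.14 above it.

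The 4 other named genes of the lower set are uncharacterised. AT4G33666 read 6.84 and 6.83 in unchilled L20 and 6.63 and 7.39 in chilled Col-1, against 8.07 and 8.75 in unchilled Col-1. AT3G10120 read 4.04 and 4.11 in unchilled L20 and 3.68 and 3.40 in chilled Col-1, against 5.50 and 5.32 in unchilled Col-1. In both genes the unchilled lines did not overlap, and AT3G10120 was near the lower quartile of the arrays in unchilled L20. AT2G24550 read 6.54 and 6.30 in unchilled L20 and 5.31 and 6.13 in chilled Col-1, against 7.63 and 8.34 in unchilled Col-1. AT1G05575 read 4.40 and 3.50 in unchilled L20 and 3.67 and 3.85 in chilled Col-1, against 5.48 and 6.31 in unchilled Col-1. The 2 genes were above chilled Col-1 in replicate 1, and in replicate 2 AT2G24550 was above and AT1G05575 below it. AT1G05575 was below the lower quartile of the arrays (4.04 to 4.13) in chilled Col-1 and in replicate 2 of unchilled L20.

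Among unnamed probe sets the largest smallest-qualifying differences were those of 248337_at and 265119_at in the higher set. 248337_at read 11.52 and 11.15 in unchilled L20 and 10.99 and 11.07 in chilled Col-1, against 7.29 and 8.03 in unchilled Col-1. 265119_at read 8.10 and 7.20 in unchilled L20 and 7.77 and 9.27 in chilled Col-1, against 4.74 and 4.39 in unchilled Col-1. Their genes are not named in the annotation used here. In the lower set 254926_at led the unnamed probe sets, at 6.30 and 5.89 in unchilled L20 and 6.05 and 5.97 in chilled Col-1, against 8.39 and 9.15 in unchilled Col-1.

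The bound of 1 cut through a continuum. Just inside it, AT1G21790 had a smallest qualifying difference of 1.00 and AT1G78070 of 1.01 in the higher set, and 261901_at of -1.01 and AT2G03750 of -1.02 in the lower set. Just outside it, AT1G10090 had 0.99 and 253666_at 0.98, and both 246932_at and 261470_at had -0.99.

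Whether unchilled L20 had reached the level of chilled Col-1 was then read probe set by probe set. Of the 62, 38 were within a factor of 2 of chilled Col-1 in both replicates, 16 of 28 in the higher and 22 of 34 in the lower set. Within 0.5 on the log2 scale in both replicates were 10 of 62. In a single replicate 77.4% and 80.6% of the members were within a factor of 2, against 93.1% and 94.7% of all probe sets, so closeness to chilled Col-1 was not particular to the members. The rule itself set part of these counts: 15 of 62 members had a Col-1 response under 2 in size in both replicates, and with an unchilled difference of at least 1 they could not fall short of chilled Col-1 by the bound.

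The distance from chilled Col-1 depended on the replicate number. Unchilled L20 minus chilled Col-1 ran from -1.63 to 2.82 in replicate 1 and from -2.07 to 1.12 in replicate 2 over the higher set, and from -0.65 to 2.38 and from -0.89 to 1.37 over the lower set. The median of this difference was 0.11 in replicate 1 and -0.61 in replicate 2 over the 28 higher probe sets, and of 0.55 and 0.10 over the 34 lower ones. In the higher set 16 of 28 were at or above chilled Col-1 in replicate 1 and 4 of 28 in replicate 2. In the lower set 5 of 34 were at or below it in replicate 1 and 15 of 34 in replicate 2. The higher set thus came nearer to, or passed, chilled Col-1 in replicate 1, and the lower set did so more in replicate 2.

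**Figure D2:**
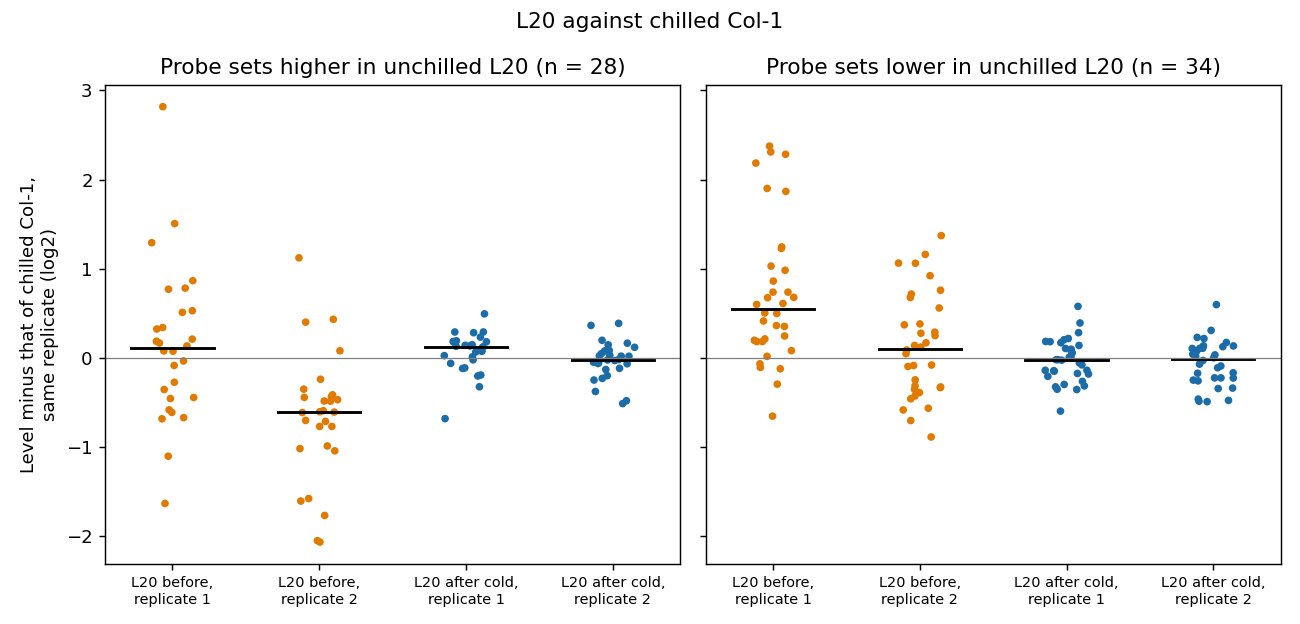
Level of each member in L20 before cold (orange) and after cold (blue) minus its level in chilled Col-1 of the same replicate, on the log2 scale; points are probe sets and black bars are medians. The orange medians are 0.11 and -0.61 for the higher set and 0.55 and 0.10 for the lower set, while all blue points lie between -0.68 and 0.60.

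The same asymmetry was seen in the differences between unchilled lines. Unchilled L20 minus unchilled Col-1 had a median of 2.66 in replicate 1 and 1.40 in replicate 2 over the higher set, and it was larger in replicate 1 for 26 of 28. Over the lower set the medians were -1.39 and -2.25, and the difference was larger in size in replicate 1 for 4 of 34. All probe sets leaned the same way: 5.61% were at least 1 higher in unchilled L20 in replicate 1 and 0.690% in replicate 2, while 0.928% were at least 1 lower in replicate 1 and 2.48% in replicate 2. Unchilled Col-1 read higher in its replicate 2 than in its replicate 1 for 32 of 34 lower and 20 of 28 higher probe sets, and for 62.6% of all. Unchilled L20 did so for 17 of 34 lower and 4 of 28 higher probe sets, and for 46.6% of all. In the higher set the median of unchilled L20 went from 8.73 in replicate 1 to 7.81 in replicate 2, and that of unchilled Col-1 from 6.04 to 6.32. In the lower set these medians went from 5.88 to 6.05 and from 7.29 to 8.52. The part of these array differences in the choice of members was not tested. After quantile normalization of the 8 columns 82 probe sets met the rule, 30 higher and 52 lower, and 58 of the 62 were among them.

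**Figure D3:**
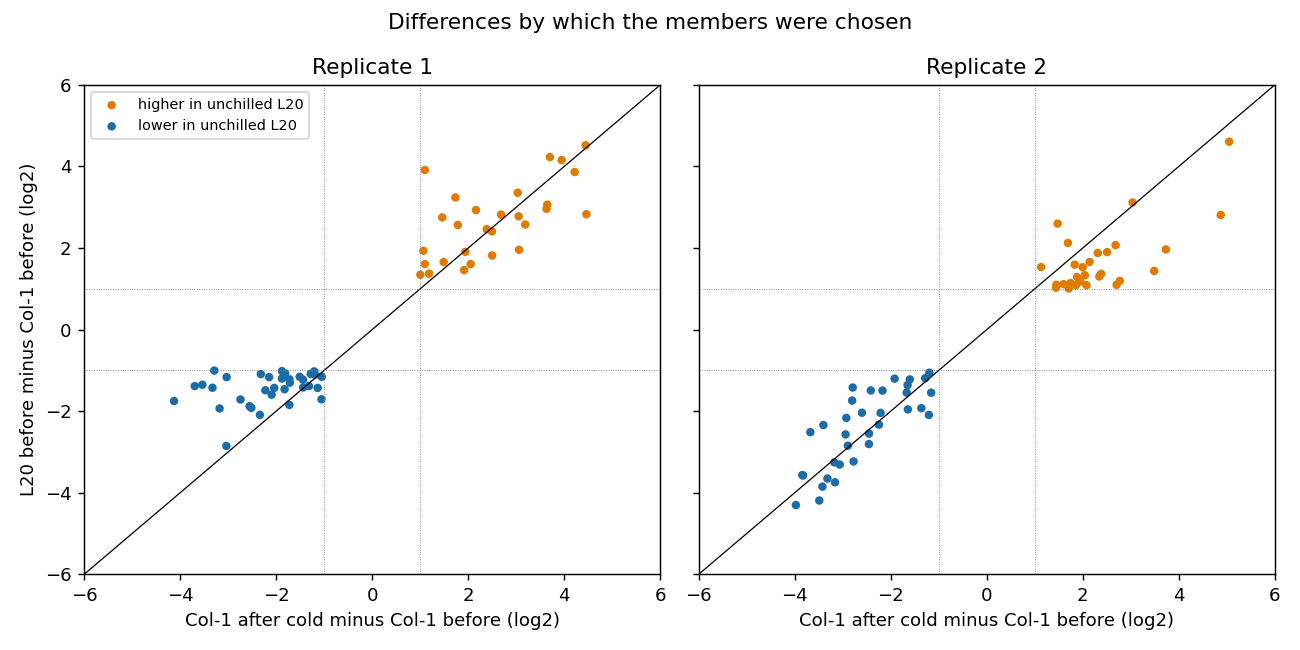
Unchilled L20 minus unchilled Col-1 (vertical axis) against chilled minus unchilled Col-1 (horizontal axis) for the 62 members in each replicate, in log2 units; the solid line marks equal differences and dotted lines the bound of 1. Unchilled Col-1 is subtracted on both axes, so position along the line is not independent evidence; the higher set spreads from 1.34 to 4.52 on the vertical axis in replicate 1 and from 1.01 to 4.61 in replicate 2.

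The unchilled difference was also read with the rule applied to 1 replicate number and the other inspected. The members had been chosen with earlier results of these data known, so neither replicate was wholly outside the choice. Of the 62 members, 50 were in the choice on replicate 1 and 53 in that on replicate 2. Chosen on replicate 1 alone, 251 higher probe sets had a median of 0.36 in replicate 2, against -0.01 over all probe sets, and 16.3% were at least 1 higher there, against 0.690% of all. The 55 lower ones had a median of -1.20 in replicate 2, and 56.4% were at least 1 lower, against 2.48% of all. Chosen on replicate 2 alone, 34 higher probe sets had a median of 2.52 in replicate 1, against 0.10 over all, and 91.2% were at least 1 higher, against 5.61%. The 193 lower ones had a median of -0.33 in replicate 1, and 20.7% were at least 1 lower, against 0.928%. Each choice held members that had passed in the inspected replicate by the rule, so the direction of these medians and the shares were partly set in advance. The 2 larger choices had medians of much smaller size in the inspected replicate. These readings are descriptions and not a separate test of the members, which passed in both replicates by the rule. All probe sets were not matched to the chosen ones for size of change, so no conclusion is drawn from that comparison.

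In L20 itself the rule barred a cold response past the bound only where both replicates reached it, and 16 of 62 members changed by less than 0.5 in both. Chilled minus unchilled L20 had a median of -0.02 in replicate 1 and 0.59 in replicate 2 over the higher set, and of -0.54 and -0.15 over the lower set. In 13 of 28 higher and 20 of 34 lower probe sets L20 still moved in the direction of the Col-1 response in both replicates. The bound was reached in that direction in 1 of the 2 replicates by 8 higher and 13 lower probe sets, and in neither by 41 of the 62. Of those that reached it in 1 replicate, AT1G23390 read 4.84 and 7.08 in chilled L20, against 7.24 and 7.54 in unchilled L20, a difference of -2.40 in replicate 1 and -0.46 in replicate 2. Against the Col-1 response in both replicates ran 6 members, among them the KIN1 and KIN2 probe set and both probe sets of AT2G30600.

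A pair of unnamed members, singled out after their values were seen, went further than chilled Col-1 before cold and came down with it. 258751_at read 7.08 and 8.01 in chilled L20, 8.78 and 8.99 in unchilled L20 and 7.27 and 7.86 in chilled Col-1, against 5.54 and 6.39 in unchilled Col-1. It was the one member that exceeded chilled Col-1 by more than the bound in both replicates, by 1.51 and 1.12. 255795_at read 8.10 and 6.80 in unchilled L20 and 5.28 and 6.37 in chilled Col-1, against 4.19 and 4.68 in unchilled Col-1, and was 2.82 and 0.43 above chilled Col-1.

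After cold the lines were close together. Chilled L20 minus chilled Col-1 ran from -0.68 to 0.49 in replicate 1 and from -0.51 to 0.39 in replicate 2 over the higher set, and from -0.60 to 0.58 and from -0.49 to 0.60 over the lower set. Both replicates were within 0.5 for 57 of 62 members, or 91.9%, against 95.5% of all probe sets, so the closeness of the chilled lines was a feature of the arrays as a whole. AT1G16850, for example, read 9.20 and 10.05 in chilled L20 and 9.13 and 9.88 in chilled Col-1. AT1G23390 was an exception in 1 replicate, at 7.08 in chilled L20 and 6.48 in chilled Col-1 of replicate 2.

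The tests came from limma, fitted over all 22746 probe sets and adjusted by Benjamini-Hochberg, with calls at an adjusted p under 0.05. The rule used the first 3 contrasts and the other 2 are made of them, so nothing is read from the members' counts in any of the 5. For unchilled L20 minus unchilled Col-1, 2 of 28 higher members passed upwards (0.0132% of all probe sets did) and 1 of 34 lower members downwards (0.0044% of all). They were AT1G16850, 248337_at and AT1G72920, and leaving out any 1 of the 8 arrays ended these calls and every other call of this contrast (0 of 22746). Where that left a group with 1 array, its spread was taken from the other groups. For chilled minus unchilled Col-1, 14 of 28 passed upwards (0.404% of all) and 8 of 34 downwards (0.127%), among them RD2, AT2G23120, AT1G11960, AT5G24570 and AT3G10120. This count of 22 became 0 without replicate 2 and 1 without replicate 1 of chilled Col-1, 3 without replicate 2 and 4 without replicate 1 of unchilled Col-1, and 11 without either array of chilled L20.

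For chilled minus unchilled L20, limma called 0 of 28 (0.277% of all passed upwards) and 0 of 34 (0.101% downwards), with 9 and 2 at an unadjusted p under 0.05 (9.73% of all). For chilled L20 minus chilled Col-1, a contrast that the rule did not name but that follows from those it did, limma called 0 of 28 and 0 of 34 (0% of all in either direction), with 0 and 0 at an unadjusted p under 0.05 (0.0835% of all). The model left out the replicate number, by which the differences above were paired. With so few of all probe sets under 0.05, the lack of calls does not show that the chilled lines were equal. The difference of the cold responses, L20 minus Col-1, was added after the data were seen. Limma called 0 of 62 there as well (0% of all), with 25 of 28 and 24 of 34 at an unadjusted p under 0.05 (2.18% of all); the rule held the Col-1 response past the bound and limited that of L20.

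Other genes of the pathways around these members were looked up in lists of 133 loci. Of the 32 CBF-regulon, COR and LEA genes 7 were measured on a probe set of 1 gene. Limma called 0 of 7 between the unchilled lines, with 6 at an unadjusted p under 0.05 (5.54% of all probe sets). With cold in Col-1 it called 4 of 7 upwards (0.404% of all) and 0 downwards (0.127% of all). The 0 of 7 became 1 with trend and robust settings, 2 after quantile normalization and 2 with a mean of at least 6, and the 4 of 7 became 0 without either array of chilled Col-1 and 1 or 2 without replicate 1 or replicate 2 of unchilled Col-1. Their median difference between unchilled L20 and unchilled Col-1 was 2.09, which is the value of COR15B, against 0.04 over all probe sets. Since the rule had picked COR15B and other genes of this list on that same difference, the median is not a separate reading of the pathway. Of the 7 genes, 4 met the rule and were left aside by name, and the other 3, COR27, COR28 and LEA4-5, did not meet it. LEA4-5, a late-embryogenesis protein gene, read 8.58 and 7.23 in unchilled L20 and 6.77 and 8.54 in chilled Col-1, against 5.84 and 5.57 in unchilled Col-1, and missed in replicate 1, where chilled minus unchilled Col-1 was 0.93. COR28, a cold-induced regulator of the clock, read 6.74 and 6.70 in unchilled L20 and 8.91 and 8.38 in chilled Col-1, against 6.65 and 7.69 in unchilled Col-1. Unchilled L20 minus unchilled Col-1 was 0.09 in replicate 1 and negative in replicate 2 for COR28, so this gene did not stand on the side of cold there.

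Of 35 genes of the rapid touch, wound and calcium response 6 had a probe set of 1 gene in the annotation used here. Listed genes without one may lie on unnamed probe sets. Limma called 0 of 6 between the unchilled lines (2 at an unadjusted p under 0.05). With cold in Col-1 it called 1 of 6 downwards and 0 upwards, a call lost without any 1 array of chilled L20, chilled Col-1 or unchilled Col-1. Between the unchilled lines 5.54% of all probe sets had an unadjusted p under 0.05. The median difference of the 6 genes there was -0.81. Largest in size was the mean of ORA47, at -3.65, the gene called with cold, which met the rule and was left aside by name. ZAT10 followed at -2.29 and did not meet the rule, and only CML37 had a mean above 0, at 0.06. WRKY22, a defence transcription factor gene, read 5.44 and 4.18 in unchilled L20 and 4.32 and 3.98 in chilled Col-1, against 5.36 and 6.58 in unchilled Col-1. It was lower in unchilled L20 in replicate 2 and not in replicate 1. The calmodulin-like gene CML37 read 3.17 and 3.30 in unchilled L20, against 3.30 and 3.04 in unchilled Col-1, at the low end of the arrays. Of the 14 clock genes only GI had a probe set of 1 gene in that annotation. It read 7.35 and 7.06 in unchilled L20 and 8.97 and 8.79 in chilled Col-1, against 7.42 and 8.11 in unchilled Col-1. None of the listed abscisic acid, jasmonate or sugar-starvation genes had a probe set of 1 gene here.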

How the data were processed

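RNA of whole seedlings was read on 8 Affymetrix arrays, in 4 groups of 2. The authors deposited log2 signals of 22810 probe sets, and the submitters' processing notes name RMA, which corrects background, normalizes between arrays and summarises probes; the sources used here give no version. The 64 control probe sets were left out. Such a normalization makes differences relative to the bulk of the genes. Names came from the platform annotation, updated through RefSeq gene names (TAIR10.1), and probe sets annotated to several genes named none; of several probe sets for a listed gene, the one with the highest mean stood for it. Differences were taken within replicate numbers. Tests used limma 3.58.1 in R 4.3.3 (all 8 arrays, a mean per group, eBayes, two-sided). They were also run on simulated arrays with independent noise, which lack the correlation between equal replicate numbers given below. No probe sequences, promoters or scanner files were used here. With 2 arrays a group, p-values measure only the spread between these samples. The titles call the replicates biological but do not say how they were grown or harvested apart, so part of that spread may be technical.

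Named with values were the 8 single-gene members per direction with the largest smallest-qualifying difference, members with a gene symbol, members on a list, and probe sets beside the bound; other members were added. The members and lists were chosen with earlier results of these data known. Alternatives were other bounds, 1 replicate number, no pairing, crossed numbers, quantile normalization, a minimum mean of 6, the replicate block, trend and robust settings and leaving out each array.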

Additional observations from a re-analysis of the deposited data

Results flagged for a closer look

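For 6 members the cold response of L20 ran against that of Col-1 in both replicates. Means of chilled minus unchilled L20, each set against chilled minus unchilled Col-1, were -0.29 against 3.37 for 248337_at, -1.34 against 1.61 for 258751_at, -1.44 against 1.39 for 255795_at and -0.59 against 1.10 for 246481_s_at (log2, n = 2). For AT2G30600 they were 0.24 against -1.54 on 267523_at and 0.29 against -1.17 on 267524_at. The rule had fixed the Col-1 response and bounded that of L20, and by limma the difference of the responses missed in all 6 (adjusted p = 0.297 for 248337_at and 1.00 for the other 5).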

How the results depend on the processing

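The number of members followed the rule's settings: against 62 there were 94 with a bound of 0.8, 34 with a stricter bound, 144 with group means and no pairing, 40 where unlike replicate numbers also had to pass, 227 to 306 on 1 replicate number alone and 41, an alternative chosen after seeing the data, where L20 reached the bound in neither replicate. Quantile normalization gave 82 (30 higher, 52 lower) and a mean of at least 6 gave 45 (26 higher, 19 lower), against 28 higher and 34 lower, so the lower set moved by more than 1.5 times under both. With the replicate block, limma called 10 instead of 3 members between the unchilled lines, and 38 instead of 4 of all 22746 probe sets. For cold in Col-1 it called 43 instead of 22 members (357 instead of 121 of all). For cold in L20 it called 2 instead of 0 members (580 instead of 86 of all), and in the other 2 contrasts 0. Calls thus rose over all probe sets as well. Quantile normalization gave 7 members for the first contrast (17 of all). The alternatives for the gene lists were added after seeing the data. With the block, 3 instead of 0 of 7 CBF-regulon, COR and LEA genes were called upwards and 1 instead of 0 of 6 touch, wound and calcium genes downwards between the unchilled lines; trend and robust settings, quantile normalization and a mean of at least 6 gave 1, 2 and 2 for the first list, and the last left 1 of the 6 touch genes measured, with 0 called for cold in Col-1 instead of 1. Leaving out 1 array gave 0 for the first whichever array it was, 0 to 17 for cold in Col-1, and 0 for the others; for cold in Col-1 it gave 0 to 4 of the 7 CBF-regulon genes and 0 to 1 of the 6 touch genes. Replicate 1 minus replicate 2 correlated at 0.341 to 0.837 between groups over probe sets; the labels give the groups only a shared number, so the block is not used above. The directions of the differences between unchilled lines of the 27 annotated members were kept under quantile normalization and in each replicate, which the rule demands. The number of arrays limits the precision.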
